A study of Mus musculus with 25 samples.

Results

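The alpha-globin locus of the mouse was described here by its GATA1 and TAL1 binding locations, as measured by ChIP-exo in erythroid progenitor cells. ChIP-exo is chromatin immunoprecipitation in which an exonuclease trims the DNA up to the point where the protein was cross-linked. Members were all listed positions in, or within 50 kb of, the 3 alpha-globin genes Hba-x, Hba-a1 and Hba-a2 on chromosome 11 of the mm9 genome. The resulting window, chr11:32126400-32247301, held 114 of the 166131 entries of the 6 lists. For GATA1 these were 20 peak pairs, 4 MultiGPS locations and 4 final locations. For TAL1 they were 54 peak pairs, 16 MultiGPS locations and 16 final locations. A peak pair is a pair of exonuclease stops on opposite strands, MultiGPS is a separate caller that models the read distribution, and a final location is a MultiGPS location that also had a peak pair within 100 bp. Within the window the final and MultiGPS lists were identical for each factor, so only the final locations and the peak pairs are described further.

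The cells were G1E, an erythroid progenitor line of mouse strain 129 that lacks Gata1, and G1E-ER4, its derivative in which Gata1 was restored as a fusion that is activated by estradiol. The labels gave 10 GATA1 libraries, of which 1 was from G1E cells and 3 each were from G1E-ER4 cells at 0, 3 and 24 h of treatment with beta-estradiol, at 10 nM by the labels, whereas the study's methods state a higher dose. They gave 15 TAL1 libraries, namely 4 of G1E cells and, in G1E-ER4 cells, 5 at 0 h, 3 at 3 h and 3 at 24 h. Each list pooled several libraries of its factor, and whether the GATA1 lists included the G1E library is unknown here, since the labels attach it to them and the study's methods name G1E-ER4 cells only. No location could be assigned to a time point, a cell line or a replicate. The lists carried no tag count, and thus the occupancy of a location and the depth behind it are unknown here, and the cell type labels could not be checked against marker genes. All values below are counts and distances, with no test. Shares of the locations in the window have exact (Clopper-Pearson) 95% intervals, which cover counting error only and treat the locations as independent, although neighboring ones are not.

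Red cells carry hemoglobin, which is built from alpha-like and beta-like globin chains. Hba-x encodes the embryonic zeta chain, and Hba-a1 and Hba-a2 encode the alpha chains of the fetus and adult. These genes are activated through enhancer elements that lie upstream of them, mostly in introns of the neighboring gene Nprl3, which encodes a regulator of the mTORC1 pathway. GATA1 is a zinc finger protein that recognizes WGATAA, where W is A or T. TAL1 is a basic helix-loop-helix protein that, with an E protein partner, recognizes an E-box, CANNTG. Upstream of a GATA motif, a partial E-box that keeps its TG can stand instead. The study proposes that the partner, and not TAL1, contacts this TG. The elements are named R1, R2, R3, Rm and R4, at nominal distances of 31, 26, 21, 12 and 8 kb upstream of Hba-x, and a listed position was assigned to an element when it lay within 1.5 kb of that distance. R2 is the mouse counterpart of the major human alpha-globin enhancer.

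The DNA around the GATA1 location of each element is shown first, since the counts and distances that follow refer to it. Each run has 151 bases of mm9, on the plus strand, with the GATA1 final location at base 76. Rm had no GATA1 final location, and its run is placed on its single GATA1 peak pair. Capitals mark the GATA motif, either in its strict form (AGATAA or TGATAA) or with G as its last base (AGATAG or TGATAG), and any TG that lay 7 or 8 bp upstream of such a site. A site on the minus strand appears as its complement, for example as TTATCT with CA to its right.
R1 (chr11:32145741-32145891): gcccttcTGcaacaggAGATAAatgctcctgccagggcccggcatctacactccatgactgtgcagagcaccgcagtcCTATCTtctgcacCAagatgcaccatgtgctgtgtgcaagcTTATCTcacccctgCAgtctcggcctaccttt
R2 (chr11:32150968-32151118): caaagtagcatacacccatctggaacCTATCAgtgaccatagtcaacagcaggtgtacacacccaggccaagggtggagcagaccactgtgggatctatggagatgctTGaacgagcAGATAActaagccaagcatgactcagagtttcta
R3 (chr11:32156364-32156514): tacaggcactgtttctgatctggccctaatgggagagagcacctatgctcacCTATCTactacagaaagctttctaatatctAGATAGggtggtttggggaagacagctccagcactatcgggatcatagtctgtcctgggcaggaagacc
Rm (chr11:32165239-32165389): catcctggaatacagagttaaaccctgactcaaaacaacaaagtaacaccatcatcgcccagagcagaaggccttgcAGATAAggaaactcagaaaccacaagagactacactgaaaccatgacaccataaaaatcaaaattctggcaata
R4 (chr11:32169097-32169247): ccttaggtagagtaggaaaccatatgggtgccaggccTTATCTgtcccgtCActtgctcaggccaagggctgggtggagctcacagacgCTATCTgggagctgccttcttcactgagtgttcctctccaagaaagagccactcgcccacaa
R1 held 3 such sites, all of them with an upstream TG. R2, R3 and R4 held 2 each, and Rm held 1. At least 1 of the 4 letter strings stood in 90.3% of the runs of this length around all 10290 GATA1 final locations, and in 25.2% of the runs placed 1 kb away from them.

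At R1, R2, R3 and R4, GATA1 and TAL1 final locations were listed in the same short stretches of the locus. All 4 GATA1 and all 16 TAL1 final locations fell at the upstream elements. GATA1 had 1 final location at each of R1, R2, R3 and R4 and none at Rm. TAL1 had 5 at R1, 2 at R2, 2 at R3, 4 at Rm and 3 at R4, and so was listed at all 5 elements. The spans from the first to the last entry of any list were 582 bp at R1, 476 bp at R2, 643 bp at R3, 556 bp at Rm and 431 bp at R4. Together they covered 2.22% of the window, a share that follows from the entries, since the entries set the spans. The stretches that assigned a position to an element, within 1.5 kb of each nominal distance, were wider than these spans. The stretches between neighboring elements, from 3.31 kb between Rm and R4 to 8.29 kb between R3 and Rm, held 1 entry, a GATA1 peak pair between Rm and R4.

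**Figure D1:**
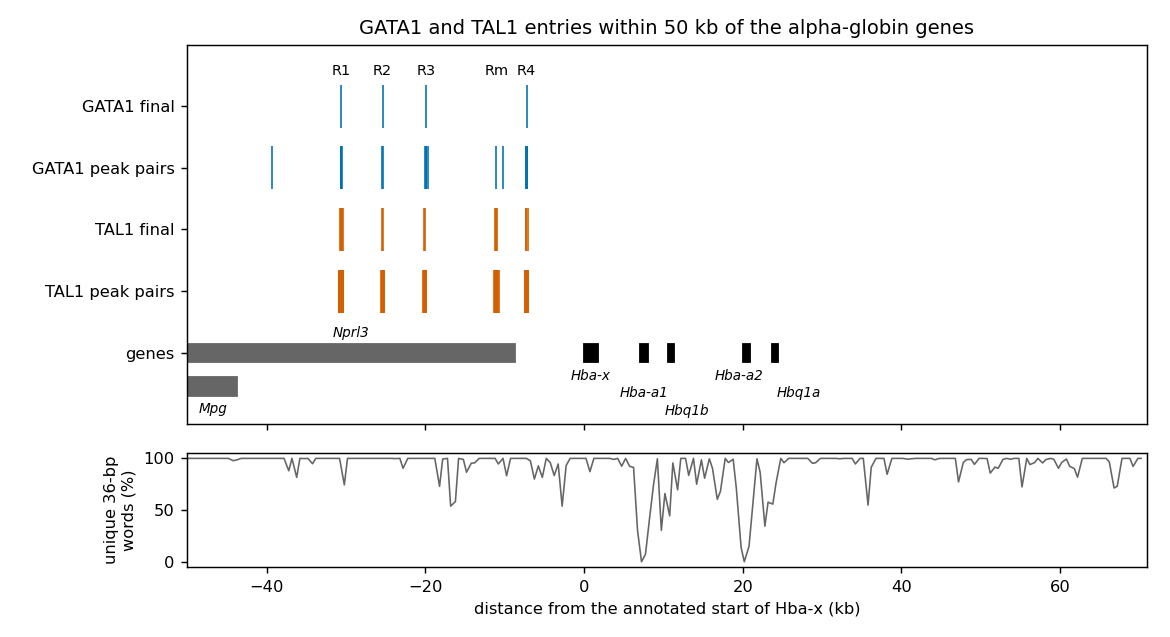
Map of the window, with the distance from the annotated start of Hba-x in kb on the horizontal axis. Vertical lines are GATA1 (blue) and TAL1 (orange) final locations and peak pairs, boxes are genes (Nprl3 and Mpg in gray), and the lower trace is the share of 36-bp words, in bins of 500 bp, that occur once in the genome. The entries stand in 5 groups to the left of Hba-x, and the trace falls to 0% at Hba-a1 and at Hba-a2.

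No entry of any list lay in or downstream of an alpha-globin gene. The last GATA1 final location before the genes was 7.23 kb upstream of the annotated start of Hba-x, 14.3 kb upstream of Hba-a1 and 27.3 kb upstream of Hba-a2. For TAL1 the last final location was 7.09 kb upstream of Hba-x, 14.2 kb upstream of Hba-a1 and 27.2 kb upstream of Hba-a2. The 7.02 kb between the last entry of R4 and Hba-x, the 20.9 kb from the start of Hba-x to the end of Hba-a2, and the following 50000 bp up to the end of the window held 0 entries of the 6 lists. Those stretches held 9, 21 and 49 AGATAA or TGATAA sites, respectively. The relation of these sites to the absence of entries was not tested. The theta-like genes Hbq1b and Hbq1a, which stand among and after the alpha genes, also had no entry in their bodies.

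R1 had the most entries, with 36 over the 6 lists. Its GATA1 final location was at 32145816, and its TAL1 final locations were at 32145622, 32145742, 32145829, 32145880 and 32145983. All of them lay in an intron of Nprl3, about 30.6 kb upstream of Hba-x. The TAL1 locations stood 120, 87, 51 and 103 bp apart. The third of them was 13 bp from the GATA1 location. That GATA1 location was 3 bp from an AGATAG (32145819 to 32145824, minus strand) that had a TG 7 bp upstream of it, and the same TAL1 location was 5 bp from this site. The other TAL1 locations at 32145742 and 32145880 were each 15 bp from an AGATAA, the former on the plus strand at 32145757 and the latter on the minus strand at 32145860. Thus, 3 GATA motif letter strings of R1 each had a TAL1 final location within 15 bp, while 1 of them had the GATA1 final location that near. The 5 GATA1 peak pairs of R1, at 32145725, 32145750, 32145783, 32145836 and 32145921, extended to the first AGATAA, with the second of them 7 bp from it. TAL1 had 19 peak pairs at R1, from 32145491 to 32146072.

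At R2, the GATA1 final location was at 32151043 and the TAL1 final locations were at 32150899 and 32151060, all in an intron of Nprl3 about 25.4 kb upstream of Hba-x. The GATA1 location and the second TAL1 location were 17 bp apart. The GATA1 location of R2 had no GATA motif within 40 bp. It stood between a TGATAG at 32150994 to 32150999, on the minus strand, and an AGATAA at 32151085 to 32151090, on the plus strand, the nearer of which was 42 bp away. Each of these motifs had its own entries. The GATA1 peak pair at 32150999 was inside the TGATAG, and a TAL1 peak pair at 32151001 was 2 bp from it. The second GATA1 peak pair, at 32151052, was 33 bp from the AGATAA, and the TAL1 peak pair at 32151092 was 2 bp from it. The printed run of R2 also held 2 E-boxes, 3 CACCC, the letters that KLF1 and related zinc finger proteins recognize, and 1 TGAGTCA, the core of an NF-E2 site. TGAGTCA, on either strand, stood in 4.74% of the runs of this length at all GATA1 final locations and in 2.88% of those placed 1 kb away, and the printed run of Rm held 1 as well. An E-box stood in 58.7% of such runs and in 55.4% of those placed 1 kb away, and CACCC stood in 31.8% and 27.2%, so neither is far from its background.

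R3 had its GATA1 final location at 32156439 and its TAL1 final locations at 32156252 and 32156400. The GATA1 location was in an intron in all 9 annotated Nprl3 transcripts that spanned it, whereas both TAL1 locations were in an exon of 1 of 10 transcripts and in introns of the others. The GATA1 and TAL1 locations were 39 bp apart, the largest distance of the 4 GATA1 locations to TAL1 and 1 bp under the limit used for cooccupancy. The printed run of R3 held no AGATAA or TGATAA. It held 2 AGATAG sites, on opposite strands, at 7 bp and 18 bp from the GATA1 location. The GATA1 peak pair at 32156450 was inside the first of them, and the TAL1 location at 32156400 was 16 bp from the other. Outside the printed run, the span of R3 held 1 AGATAA, at 32156323 to 32156328 on the minus strand, with a TG 7 or 8 bp upstream. TAL1 peak pairs at 32156293 and 32156357 were 30 and 29 bp from it, and the nearer TAL1 final location was 71 bp away.

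Rm differed from the other elements in the lists that named it. TAL1 had 4 final locations there, at 32165134, 32165266, 32165303 and 32165393, and 11 peak pairs. GATA1 had 0 final and 0 MultiGPS locations and 1 peak pair, at 32165314. This peak pair was 2 bp from the only GATA motif of the element, an AGATAA at 32165316 to 32165321 without a TG at 7 or 8 bp, and it was 11 bp from the TAL1 location at 32165303. Therefore, the presence of GATA1 at Rm depended on the list that was read. A second GATA1 peak pair, at 32166180, lay 787 bp from the last TAL1 final location of Rm and 1 bp from a TGATAG, and it was outside the spans of the elements. Rm also had the lowest GC content of the elements, 38.3% against 45.2% to 51.6% at the other 4, and 95.1% of its 36-bp words were unique in the genome against 100% at the others.

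R4 was the element nearest to the globin genes and lay outside gene bodies, 1.47 kb from the start of Nprl3 at its GATA1 location. Its GATA1 final location was at 32169172, and its TAL1 final locations were at 32169122, 32169155 and 32169309. The second TAL1 location was 17 bp from the GATA1 location. R4 held an AGATAA on the minus strand at 32169134 to 32169139, with a TG 7 bp upstream of it, and an AGATAG on the same strand at 32169186 to 32169191. TAL1 locations flanked the AGATAA at 12 and 16 bp. The GATA1 final location was between both motifs, 14 bp from the AGATAG and 33 bp from the AGATAA, and the GATA1 peak pairs at 32169152 and 32169194 were 13 bp from the AGATAA and 3 bp from the AGATAG, respectively.

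**Figure D2:**
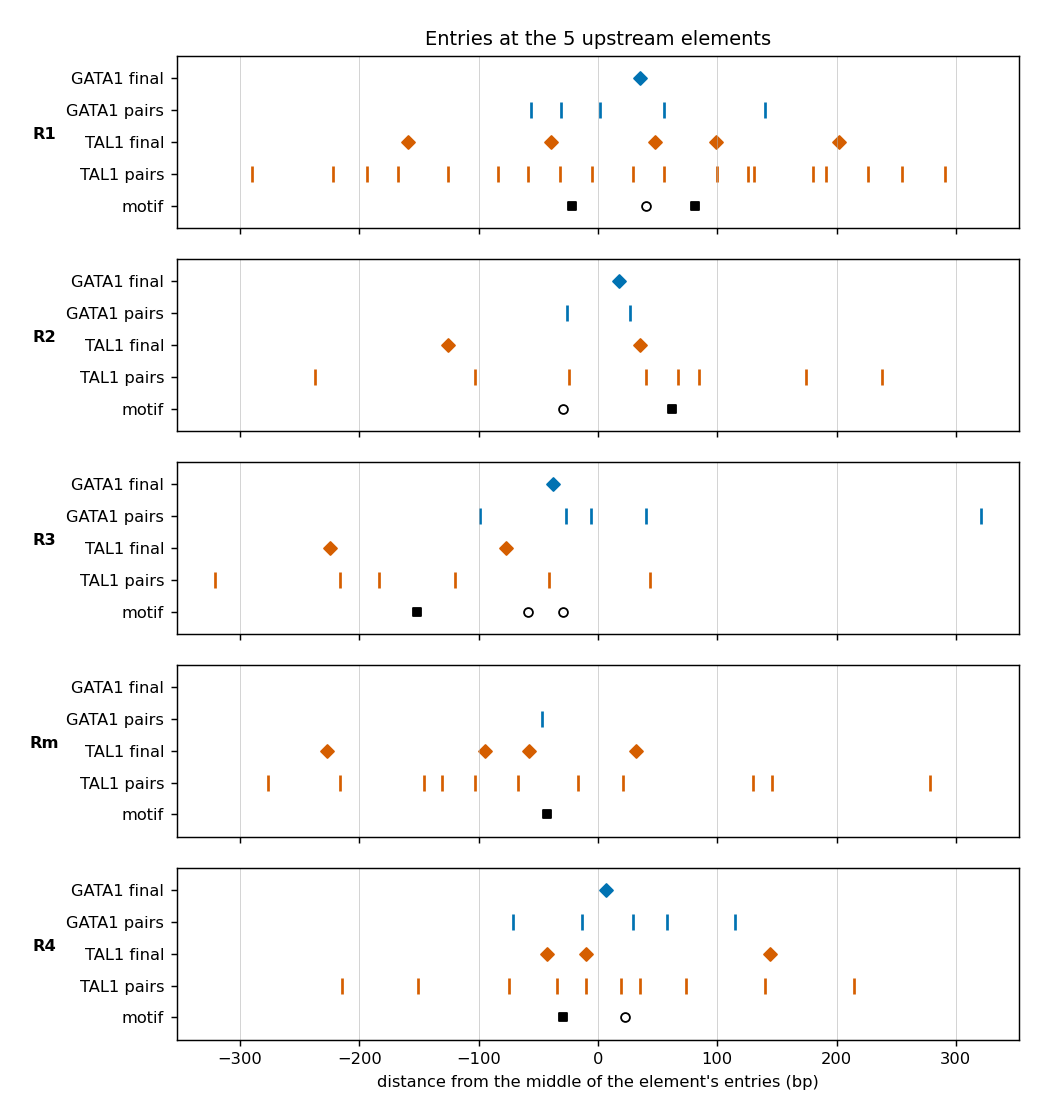
Entries at each element, with the distance from the middle of the element's entries in bp on the horizontal axis. Diamonds are final locations and ticks are peak pairs of GATA1 (blue) and TAL1 (orange), black squares are AGATAA or TGATAA sites, and open circles are AGATAG or TGATAG sites. R1, R2, R3 and R4 each have 1 GATA1 diamond with a TAL1 diamond 13 to 39 bp away, and Rm has none.

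Cooccupancy, defined as a distance under 40 bp between final locations of the 2 factors, held for 4 of 4 GATA1 locations of the locus, at 13, 17, 39 and 17 bp in R1, R2, R3 and R4. The 95% interval of this share was 39.8% to 100%, and the share over all 10290 GATA1 final locations was 35.9%. From the side of TAL1, 4 of the 16 locations were cooccupied (7.27% to 52.4%), against 27.5% of all 15209. The TAL1 share at the locus was thus close to that of the whole list. TAL1 locations outnumbered those of GATA1 at each element. TAL1 peak pairs also outnumbered those of GATA1 at each element. A TAL1 peak pair was under 40 bp away from 17 of the 20 GATA1 peak pairs, against 32% of all GATA1 peak pairs, and a GATA1 peak pair was under 40 bp away from 22 of the 54 TAL1 peak pairs, against 26.9% of all TAL1 peak pairs.

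Locations of 1 factor that were under 500 bp apart formed a homotypic cluster. All 16 TAL1 locations were in such clusters, 1 cluster per element (95% interval, 79.4% to 100%), against 64.4% of all TAL1 final locations. The clusters of R1, Rm, R4, R2 and R3 held 5, 4, 3, 2 and 2 locations and spanned 361, 259, 187, 161 and 148 bp. Over the genome, 19.5% of 2906 TAL1 clusters had at least 5 locations. The distances between neighboring TAL1 locations within these clusters ran from 33 bp in R4 to 161 bp in R2. By contrast, 0 of 4 GATA1 locations were in a GATA1 cluster (0% to 60.2%), against 13.7% of all GATA1 final locations, and the nearest pair of GATA1 locations, in R1 and R2, was 5227 bp apart. The neighboring locations in a cluster share sequence and reads and are not independent of each other.

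**Figure D3:**
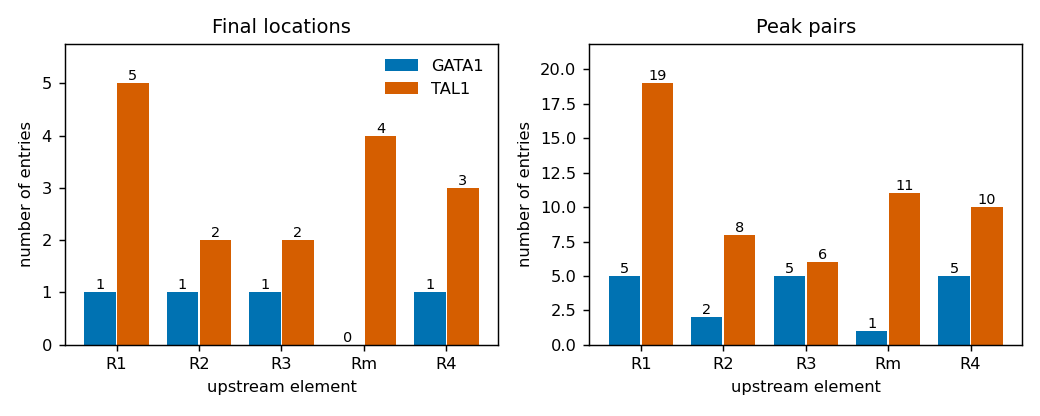
Number of final locations (left) and peak pairs (right) of GATA1 (blue) and TAL1 (orange) at each element. TAL1 exceeds GATA1 at all 5 elements in both lists, with the most entries at R1 (5 final locations and 19 peak pairs).

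The count of GATA1 locations with the strict GATA motif depended on the distance allowed. AGATAA or TGATAA stood within 40 bp of 1 of 4 GATA1 locations, the one in R4 (95% interval, 0.631% to 80.6%), against 66.5% of all GATA1 final locations and 8.29% of positions 1 kb away from them. Those of R1 and R2 had one just beyond this limit, at 44 and 42 bp. Within the printed runs, which reach to 75 bp on either side, 3 of 4 held the strict motif, R3 being the exception, against 78.5% of all GATA1 final locations and 15% of runs placed 1 kb away. When AGATAG and TGATAG were counted as well, 3 of 4 had a motif within 40 bp (19.4% to 99.4%), against 80.1% of all. The remaining one was that of R2. The GATA1 peak pairs, which mark single cross-linking points, had any of these 4 strings within 40 bp in 13 of 20 cases, against 60.7% of all GATA1 peak pairs. For TAL1, 7 of 16 final locations had AGATAA or TGATAA within 40 bp (19.8% to 70.1%), against 45.9% of all, and 8 of 16 had any of the 4 strings (24.7% to 75.3%), against 56.5% of all. Of the TAL1 peak pairs 19 of 54 had one, against 36.1% of all.

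The TG was also counted. An AGATAA or TGATAA with a TG 7 or 8 bp upstream was searched within 40 bp. It was near 1 of 4 GATA1 locations (0.631% to 80.6%), against 21.9% of all. It was near 6 of 16 TAL1 locations (15.2% to 64.6%), against 25% of all. The AGATAA sites at 32145860 in R1 and at 32169134 in R4 were each counted for 2 of these TAL1 locations. Measured from base 4 of the motif and in its direction, the TAL1 locations at AGATAA sites stood at -18, -18, -28, -16 and -19 bp in 5 pairings, which is upstream of the motif, where a TG stood in 4 of these 5, and at 33 and 14 bp in the other 2. Each of these other 2 pairings was with a site that also entered 1 of the 5 upstream pairings. Over all 5908 TAL1 final locations with a single AGATAA or TGATAA within 40 bp, 69.5% stood upstream of it. Their median was -14 bp, with quartiles at -24 and 6 bp. The upstream placing at the locus was thus close to that of the whole list. The single GATA1 pairing, in R4, stood at -36 bp, whereas the median over 5183 GATA1 final locations was -6 bp, with quartiles at -18 and 7 bp.

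Other letter strings were searched in the same 40 bp on either side. An E-box, CANNTG, was near 3 of 4 GATA1 locations and 8 of 16 TAL1 locations, against 38.2% and 45.3% of all locations of the factors. The E-box is a short string, and 33.9% and 34.9% of positions moved by 1 kb held it too. CACCC was near 3 of 4 GATA1 and 5 of 16 TAL1 locations, against 18.4% and 19.7% of all. TGAGTCA was near 0 of 4 GATA1 (0% to 60.2%) and 2 of 16 TAL1 locations (1.55% to 38.3%), against 2.15% and 2.12% of all. Both of these TAL1 locations, 32165266 and 32165303, were in Rm, 37 bp apart, and had the same site nearby, so 1 site was counted for both. A match of these letters is a description of the sequence and does not show that a factor bound there.

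**Figure D4:**
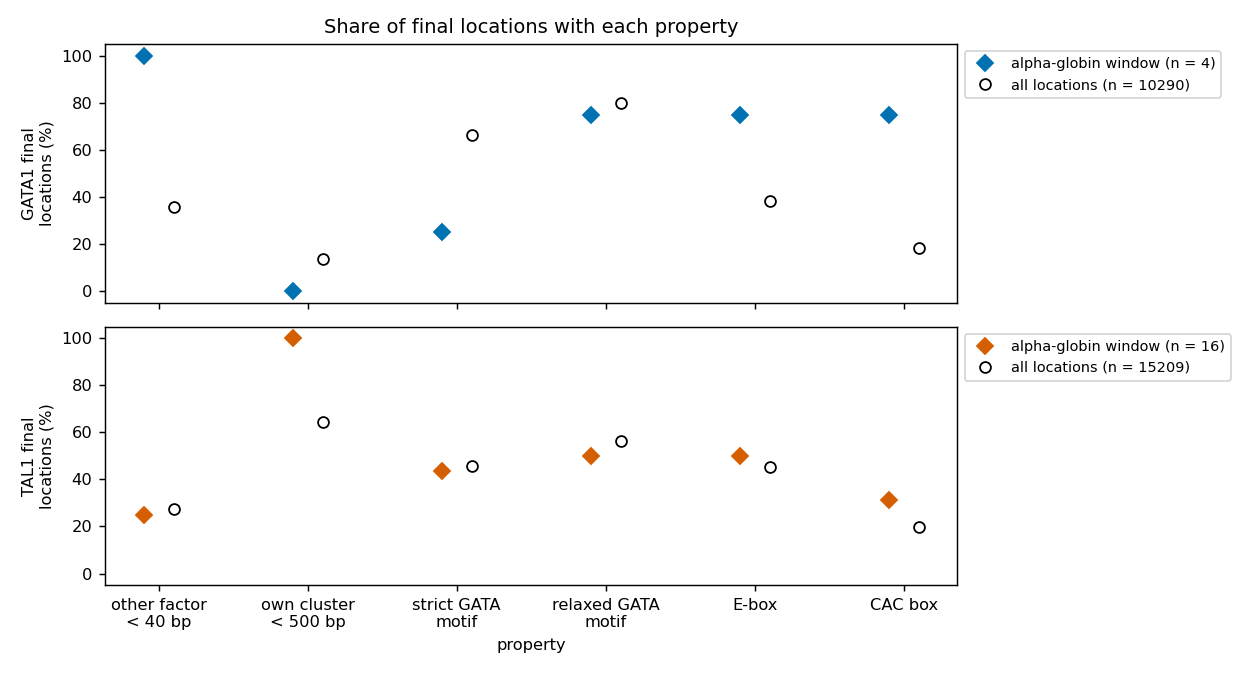
Share of final locations, in percent, that have a location of the other factor under 40 bp away, a location of the same factor under 500 bp away, or a motif within 40 bp. The strict GATA motif is AGATAA or TGATAA, the relaxed one includes AGATAG and TGATAG, the E-box is CANNTG and the CAC box is CACCC. Filled diamonds are the 4 GATA1 (blue) and 16 TAL1 (orange) locations of the window, and open circles are all locations of the factor, which lie below the diamonds for GATA1 cooccupancy and for TAL1 clusters and above them for the strict motif of GATA1.

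Of the 113 AGATAA and TGATAA sites in the window, 6 were in the element spans, at a density of 2.23 per kb there against 0.935 per kb over the window. Because the entries set these spans, the densities only describe the sequence under the entries. Of all 113 sites, 1 began within 40 bp of a GATA1 final location, 5 within 40 bp of a GATA1 peak pair and 5 within 40 bp of a TAL1 final location. Thus, most such letters in the locus had no final location of either factor nearby.

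The 2 adult genes share their promoter sequence. The 300 bases around each RefSeq start (250 before and 50 after, from the RefSeq promoter table for GRCm38.p6) matched mm9 at 1 place in the window for Hba-x, and at 2 places for Hba-a1 and for Hba-a2. The exact repeat reached over 1022 bp, from 32183321 to 32184342 at Hba-a1 and from 32196138 to 32197159 at Hba-a2, 12817 bp apart. The 200 bases before the annotated start of Hba-a2 (chr11:32196289-32196488, plus strand) are shown because both genes have them, letter for letter. Capitals mark the GATA motif (TGATAA), the CAC boxes (CACCC) and the CAAT box.
Hba-a2 and Hba-a1: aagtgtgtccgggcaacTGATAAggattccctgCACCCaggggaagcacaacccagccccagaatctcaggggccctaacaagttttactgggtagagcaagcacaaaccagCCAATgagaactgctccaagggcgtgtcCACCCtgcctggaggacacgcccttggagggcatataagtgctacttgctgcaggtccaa
The unique promoter of Hba-x also held a TGATAA, marked in capitals, 108 bp before its RefSeq start.
Hba-x (chr11:32176480-32176509): tgttgctggctcTGATAAcaggctccaccc
AGATAA or TGATAA stood in 18.6% of the 32851 promoters of that table, CACCC in 57.5% and CCAAT in 37.4%. Hba-a1 and Hba-a2 each had 1 TGATAA, 2 CACCC and 1 CCAAT in these 300 bases, and Hba-x had 1 TGATAA, 2 CACCC and 0 CCAAT.

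Because the reads that mapped to more than 1 place had been removed before the locations were called, the share of unique sequence is given beside the absence of entries at these genes. In the 300 bases of the Hba-a1 promoter and in those of Hba-a2, 0% of 36-bp words occurred once in the genome. Over the gene bodies and 1 kb on either side, it was 39.7% at Hba-a1 and 37.6% at Hba-a2, 67.8% at Hbq1b and 72.8% at Hbq1a. Hba-x was different, with 98.3% over its body and flanks and 100% in its promoter, and it had no entry either. From the end of Hba-a2 to the end of the window, 94.3% of words were unique. The part of the repeat in the absence of entries at Hba-a1 and Hba-a2 was not tested.

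Read per gene, Hba-x and Hba-a1 each had 4 GATA1 and 16 TAL1 final locations within 50 kb of their bodies. Hba-a2, which lies further from the elements, had 3 and 11, since R1 was over 50 kb away. At least 1 GATA1 final location was within 50 kb of 42.6% of 22238 protein-coding genes, and at least 1 TAL1 final location of 40.2%. As many GATA1 locations as Hba-x, or more, were found for 9.43% of genes, and as many TAL1 locations, or more, for 0.868%. The same locations are counted for every gene near them. Nprl3 itself carried 3 GATA1 and 13 TAL1 final locations in its body, and Mpg, which encodes a DNA glycosylase and overlaps the far end of Nprl3, carried none.

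The beta-globin genes on chromosome 7 differed from this locus in some respects and resembled it in others. The window set in the same way around Hbb-b1, Hbb-b2, Hbb-bh1, Hbb-bh2 and Hbb-y held 11 GATA1 and 25 TAL1 final locations. Of these, 7 GATA1 locations were cooccupied and 6 had AGATAA or TGATAA within 40 bp, and 20 TAL1 locations were in homotypic clusters. As at the alpha-globin genes, 0 GATA1 locations were in a GATA1 cluster. Of the 25 TAL1 locations 8 were cooccupied and 9 had AGATAA or TGATAA within 40 bp. A GATA1 final location lay 6 bp and a TAL1 final location 50 bp from the start of Hbb-b1, an adult beta-globin gene, whereas none was within 7 kb of the start of an alpha-globin gene. The other beta-like genes had them farther away, at 1.7 and 1.72 kb for Hbb-b2, 1.59 and 15.1 kb for Hbb-bh1, and 6.02 and 5.99 kb for Hbb-y. The promoters of Hbb-b1 and Hbb-b2 had 100% unique 36-bp words, against 0% for Hba-a1 and Hba-a2. The difference between the loci was not tested.

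Among genes of globin synthesis and its regulation, 9 of 10 listed names were in the annotation (Ahsp, the alpha-globin chaperone, was not analysed here). Of the 9, 8 had locations of both factors within 50 kb. Over all 22238 genes, 42.6% had a GATA1 location that near and 40.2% a TAL1 location. The medians over the 9 genes were 4 GATA1 and 7 TAL1 final locations, against 0 and 0 over all genes. Klf1, which encodes the CACCC-binding erythroid factor, had 2 GATA1 and 6 TAL1 locations, the closest at 13 and 72 bp from its start. Alas2, the first enzyme of heme synthesis in red cells, had 2 and 7. Nfe2, a subunit of NF-E2, had 4 and 12, all in its body or within 1 kb of it. Zfpm1, which encodes the GATA1 cofactor FOG1, had 21 and 37. Atrx, which encodes a chromatin remodeler, had 0 and 0, with the nearest location 115 kb from its start. The distance from the start varied among these genes. The nearest GATA1 and TAL1 locations were 0.151 and 0.029 kb away for Nfe2, 0.168 and 0.083 kb for Tal1, and 0.1 and 0.042 kb for Lmo2. They were 0.729 and 2.44 kb away for Zfpm1 and 2.35 and 2.2 kb for Alas2. For Gata1 they were 6.56 and 6.47 kb away and for Ldb1 7.9 and 7.89 kb, near the 7.23 and 7.09 kb of Hba-x. The number of TAL1 locations exceeded that of GATA1 for all 8 genes with locations. The whole TAL1 list is also the longer one, with 15209 final locations against 10290.

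Close to the edges of the window, the outermost final locations inside it were 19.4 kb (GATA1) and 19.2 kb (TAL1) from its left end, both in R1. One further entry, a GATA1 peak pair at 32137103 in an exon of 1 of 10 Nprl3 transcripts, lay outside the elements. Just outside the window, a GATA1 peak pair was at 32126107 in Nprl3, 293 bp beyond the left end. The nearest final locations beyond it were 26 kb away for GATA1, at 32100376, and 25.9 kb away for TAL1, at 32100506, next to the cytokine receptor gene Il9r. Up to 50 kb beyond the right end, no entry was listed. Finally, 14 of 20 GATA1 peak pairs of the window had a GATA1 MultiGPS location within 100 bp, against 46.1% of all GATA1 peak pairs, and 45 of 54 TAL1 peak pairs had a TAL1 MultiGPS location, against 50.1% of all.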

How the data were processed

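The analysis used the location lists that the authors deposited for GATA1 and TAL1. Per the file headers and columns, each entry is a single mm9 position, with no count or score. The authors called bases with CASAVA 1.7 or bcl2fastq 2.15, mapped the reads to mm9 (BWA 0.6.2 or 0.7.9a for Illumina, Bowtie 1.00 for SOLiD), and removed those that did not map uniquely. They merged replicates, removed blacklisted regions, paired GeneTrack peaks, and required an enrichment of over 2-fold relative to input and a q value below 0.05 for peak pairs and MultiGPS locations alike. By the study's methods the GATA1 lists come from G1E-ER4 cells, while the labels also attach these lists to the GATA1 library of G1E cells.

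Distances, clusters and motif searches were computed with Python 3.11.15 and numpy 2.4.6 on the mm9 genome (NCBIM37) and its GENCODE annotation (22238 protein-coding gene names; the longest entry was used where a name had several). A motif counted as within 40 bp when the whole site lay there, and other distances to a site run to its nearest base. Words of 25, 36 and 50 bp were counted over 22 chromosome sequences on both strands. The weight matrix, 8 bp wide, was learned from 500 GATA1 locations in 30 iterations, with matches at the score that 0.001 of all words reach. RefSeq promoters were placed in mm9 by exact match, and where 2 places matched, the one nearer to the annotated start was used. The counting steps were tested on simulated positions and sequence. Figures were drawn with matplotlib 3.10.9.

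The genes named were the 3 alpha-globin genes, the protein-coding genes overlapping the window, the beta-like globin genes and a list of globin regulators. Il9r had been listed in advance among the genes thought to overlap the window. It lies outside the window and is named for the entries in or next to it. The members and lists were chosen with earlier results of these data known. Since the lists pool libraries, no comparison between times or cells was made, and the intervals given are those of shares of locations, not of occupancy.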

Additional observations from a re-analysis of the deposited data

How the results depend on the processing

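Alternatives were computed for 25 settings, of which 17 stayed within 1.5 times the reported value. The counts of final locations in the window fell to 2 (GATA1) and 8 (TAL1) with a window of 20 kb, which leaves out the farther elements, and were 6 and 20 with one of 100 kb. With a limit of 100 bp, 8 of the 16 TAL1 locations were in homotypic clusters. Within 20 bp, AGATAA or TGATAA was near 0 of 4 GATA1 and 4 of 16 TAL1 locations. With the weight matrix, 3 of 4 GATA1 locations had a site (81.1% of all GATA1 final locations did), 3 of 4 had one when AGATAG and TGATAG were included, and 3 of 4 had AGATAA or TGATAA within 75 bp, the last 2 being alternatives chosen after seeing the data. Under a distance limit of 20 bp, 3 of 4 GATA1 locations were cooccupied. With elements reaching 1 kb instead of 1.5 kb from their nominal distances, 3 of 4 GATA1 and all 16 TAL1 final locations fell at an element. The share of unique words around Hba-a1 and Hba-a2 was 38.6%, and 31.8% to 44.2% with words of 25 and 50 bp. No paired analysis was possible because the lists pool all libraries of a factor, and for the same reason no library could be left out.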
